A study of Mus musculus with 18 samples.

Results

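The Ms4a family comprises membrane proteins that cross the lipid bilayer several times and keep both of their ends in the cytoplasm. Its genes were taken by symbol from the table of 53465 genes: Ms4a4a, Ms4a4b, Ms4a4c, Ms4a4d, Ms4a6b, Ms4a6c, Ms4a6d, Ms4a7, Ms4a8a and Ms4a14, and these 10 genes are called the members. The table held 9 other rows whose symbol starts with Ms4a.

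The study asked how recombinant IL-13 (rIL-13) and IL-4 (rIL-4) alter the transcriptome of microglia and infiltrated macrophages after spinal cord contusion. Adult female C57BL/6J mice of 8 to 10 weeks, without any transgene, received a contusion injury, and 48 h later 1 intraspinal injection of PBS, 100 ng of rIL-13 or 100 ng of rIL-4. Cells were sorted 24 h after the injection by CD45, CD11b and F4/80, and RNA was sequenced from microglia and from macrophages of each mouse, giving 18 libraries of 9 mice and 6 groups of 3. PBS was given to mice 1, 2 and 3, rIL-13 to mice 5, 6 and 7, and rIL-4 to mice 8, 9 and 10. All mice were injured, so that every comparison is made within the injured cord.

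Members of this family often act beside other receptors in the plasma membrane. Ms4a1 encodes CD20 of B cells and Ms4a2 the beta chain of the IgE receptor, whereas several of the other genes are used by myeloid cells. MS4A4A is known as a surface protein of alternatively activated macrophages that associates with dectin-1, the product of Clec7a, and variants of the human cluster are associated with Alzheimer's disease and with the level of soluble TREM2. IL-4 and IL-13 share a receptor that acts through the transcription factor STAT6.

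The 10 members lay in a single cluster on chromosome 19, from 11067471 to 11604849 of GRCm38, a stretch of 537.4 kb. Ms4a8a (ENSMUSG00000024730.7, 11067471 to 11081102), Ms4a14 (ENSMUSG00000099398.1, 11301249 to 11314454) and Ms4a7 (ENSMUSG00000024672.11, 11321039 to 11336146) were annotated on the minus strand. They were followed on the plus strand by Ms4a4a (ENSMUSG00000101389.1, 11375523 to 11392790), Ms4a4c (ENSMUSG00000024675.19, 11404770 to 11427246), Ms4a4b (ENSMUSG00000056290.15, 11443553 to 11467055), Ms4a6c (ENSMUSG00000079419.4, 11469366 to 11482192), Ms4a6b (ENSMUSG00000024677.13, 11516512 to 11531256) and Ms4a4d (ENSMUSG00000024678.6, 11536801 to 11558467). Ms4a6d (ENSMUSG00000024679.10, 11586604 to 11604849) closed the cluster on the minus strand. Each position is that of the whole gene in the annotation.

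RefSeq promoters of GRCm38.p6, with 250 bases before and 50 bases after each start site, were matched by symbol for 9 of the 10 members, in 10 entries of which 2 belonged to Ms4a7. The entry for Ms4a6d was not in the table. The letters TTCNNNNGAA, a spacing that STAT6 is known to bind, were searched on both strands. They were found in 2 of the 10 entries, those of Ms4a7 and Ms4a6b, and in 7.0% of the 32851 promoters of the table. The 3 promoters below are shown because Ms4a4a passed the test in 3 of the 4 comparisons with PBS, Ms4a7 rose with rIL-4 in microglia, and Ms4a6b fell with rIL-4 in macrophages. They lie at chr19:11375238-11375537 on the plus strand, chr19:11336097-11336396 on the minus strand and chr19:11518309-11518608 on the plus strand. Each is written 5′ to 3′ along the gene's strand, and the capitals mark matches to TTCNNNNGAA.
Ms4a4a: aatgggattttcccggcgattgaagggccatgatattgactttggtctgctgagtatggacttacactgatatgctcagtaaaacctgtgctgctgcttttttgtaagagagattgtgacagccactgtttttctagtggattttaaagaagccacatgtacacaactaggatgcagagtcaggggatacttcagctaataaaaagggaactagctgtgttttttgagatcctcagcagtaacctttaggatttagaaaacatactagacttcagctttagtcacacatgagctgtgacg
Ms4a7: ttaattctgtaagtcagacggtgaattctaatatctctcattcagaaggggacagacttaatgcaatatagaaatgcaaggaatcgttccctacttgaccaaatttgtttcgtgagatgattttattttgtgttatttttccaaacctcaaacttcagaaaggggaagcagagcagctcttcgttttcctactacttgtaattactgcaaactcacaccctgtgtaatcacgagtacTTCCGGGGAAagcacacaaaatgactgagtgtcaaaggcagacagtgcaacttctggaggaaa
Ms4a6b: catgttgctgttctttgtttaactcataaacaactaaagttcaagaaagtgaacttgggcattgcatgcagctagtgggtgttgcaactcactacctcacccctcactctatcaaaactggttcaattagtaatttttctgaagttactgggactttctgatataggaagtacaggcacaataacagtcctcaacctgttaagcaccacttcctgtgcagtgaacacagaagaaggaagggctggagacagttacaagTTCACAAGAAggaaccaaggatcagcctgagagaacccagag
The match in Ms4a7 begins at position -13 and that in Ms4a6b at position 9, where 1 is the start site and there is no position 0. The promoter of Ms4a4a held no match to these letters. TTCNNNGAA, a spacing of other STAT proteins, was found in 0 of the 10 entries and in 8.3% of all promoters.

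The promoters of Ms4a4c and Ms4a4b are shown because they were the most alike of the members' promoters, with 72.9% of 310 aligned columns identical. The next pair, Ms4a6c and Ms4a6b, had 51.2% of 375 columns identical. With rIL-4 in macrophages, Ms4a4b passed the test and Ms4a4c did not, at log2 fold changes of -1.87 ± 0.44 and -1.57 ± 0.66. The difference between these 2 genes was not tested. The windows lie at chr19:11407411-11407710 and chr19:11443308-11443607, both on the plus strand. Capitals mark GAGGAA, the core that the myeloid factor PU.1 is known to bind.
Ms4a4c: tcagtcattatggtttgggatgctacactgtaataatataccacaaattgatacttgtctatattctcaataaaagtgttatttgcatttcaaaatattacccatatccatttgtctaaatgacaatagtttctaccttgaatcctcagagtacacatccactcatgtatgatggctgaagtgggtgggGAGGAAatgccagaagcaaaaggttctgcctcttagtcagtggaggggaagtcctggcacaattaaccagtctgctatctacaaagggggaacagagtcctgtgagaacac
Ms4a4b: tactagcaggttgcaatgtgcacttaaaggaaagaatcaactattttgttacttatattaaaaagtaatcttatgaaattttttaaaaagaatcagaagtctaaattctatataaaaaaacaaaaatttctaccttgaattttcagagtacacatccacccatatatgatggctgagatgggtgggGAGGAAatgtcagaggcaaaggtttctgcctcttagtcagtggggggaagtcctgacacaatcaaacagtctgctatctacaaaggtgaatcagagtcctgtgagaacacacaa
GAGGAA, searched on both strands, was present in 4 of the 10 entries (Ms4a14, Ms4a7, Ms4a4c and Ms4a4b) and in 28.3% of all promoters. TGANTCA, an AP-1 site, was in 4 entries (Ms4a8a, Ms4a14, Ms4a7 and Ms4a4b) and in 7.8% of all promoters, and TTGCNNAA, a core of C/EBP sites, was in 1 entry (Ms4a4d) and in 10.8%. No match to one motif overlapped a match to another, and a match describes letters only.

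Library totals ranged from 35961305 to 45849829 counts. All 10 genes of a microglia marker list, Tmem119 and P2ry12 among them, were higher in microglia than in macrophages of PBS mice, and all 10 of a list for monocyte-derived cells were lower. The 7 markers of fibroblasts and pericytes, Col1a1 and Dcn among them, had more than 3 counts in each of the 9 microglia libraries, with sums of 8312.7 to 322440 normalized counts, against 10.46 to 366.41 in macrophages. The neutrophil list summed to between 11088 and 129540 in macrophages. Normalized counts are counts divided by size factors of the 18 libraries, so that they compare libraries and not genes.

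**Figure D1:**
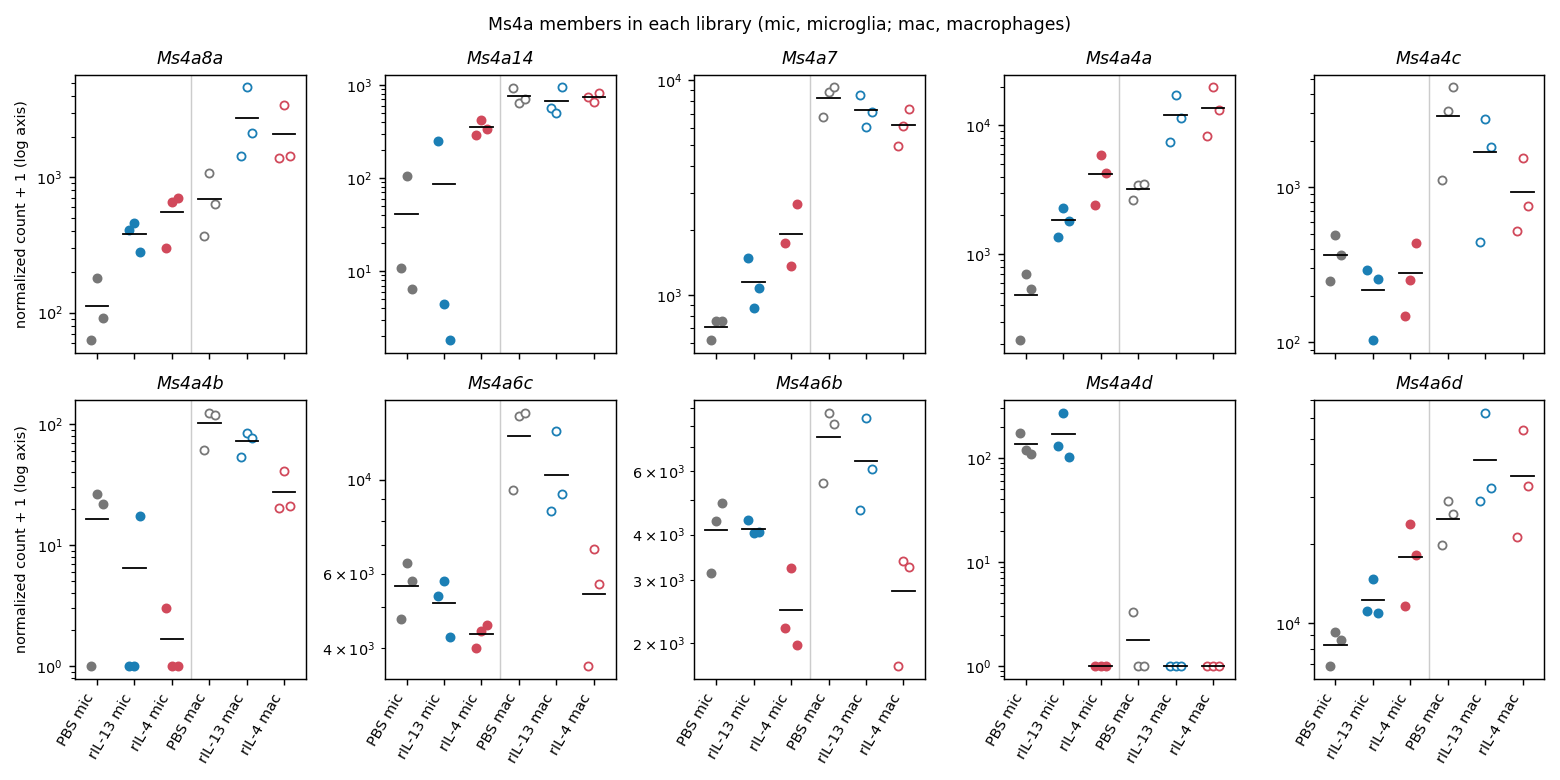
Normalized counts plus 1 of each member on a log axis, with 1 point for each library, filled for microglia (mic) and open for macrophages (mac), and a line at the mean of the 3 mice of a group. The Ms4a4a points of both cytokine groups lie above those of the PBS group in both cell types, and Ms4a4d was at 0 in the 3 rIL-4 microglia libraries.

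Among the members, levels were compared as CPM per kb of exon, where CPM is the count scaled to library size. In PBS macrophages, Ms4a6d had the highest level of 340.0 ± 59.5 (SD, n = 3), followed by Ms4a6c with 146 ± 31.0 and Ms4a4a with 90.4 ± 12.9. Ms4a7 (44.1 ± 6.91), Ms4a6b (39.4 ± 8.44) and Ms4a4c (38.9 ± 22.5) came next on this scale and did not differ beyond their spread. Ms4a8a (9.12 ± 4.58) and Ms4a14 (4.44 ± 0.94) were lower, Ms4a4b was at 0.27 ± 0.094 and Ms4a4d at 0.012 ± 0.021.

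In PBS microglia the order began likewise with Ms4a6d at 135.0 ± 23.1 CPM per kb (SD, n = 3) and Ms4a6c at 77.7 ± 13.7. Ms4a6b followed at 26.1 ± 6.06 and Ms4a4a at 16.5 ± 8.82, whose spreads met. Ms4a4c (5.98 ± 2.14) and Ms4a7 (4.53 ± 0.62) did not differ beyond their spread, nor did Ms4a4d (2.496 ± 0.596) and Ms4a8a (1.76 ± 1.02). Ms4a14 (0.28 ± 0.40) and Ms4a4b (0.050 ± 0.044) were the lowest. With rIL-4, the level of Ms4a4a was 392 ± 164 in macrophages and 135 ± 68.2 in microglia, and that of Ms4a6d was 497 ± 228 and 276 ± 120.

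Most members were lower in microglia than in macrophages of the same mice. In PBS mice, 9 of the 10 members differed (edgeR, quasi-likelihood), of which 8 were lower and 1 was higher in microglia, where 40.9% of all genes tested did. The median log2 fold change of microglia against macrophages was -2.73 over the members and 0.04 over all genes. Ms4a7, known as a gene of monocyte-derived and border macrophages, had 614, 758 and 760 normalized counts in the microglia and 6756, 8842 and 9283 in the macrophages of PBS mice 1, 2 and 3. The groups did not overlap, and the level in microglia was 11.7-fold lower (log2 fold change -3.60 ± 0.17 (SE), adjusted p = 3.38e-06, edgeR). In bulk libraries, fewer cells that use a gene and less RNA of it per cell cannot be told apart.

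Ms4a4a, with 213, 704 and 531 normalized counts in PBS microglia and 2641, 3416 and 3510 in PBS macrophages, was 6.61-fold lower in microglia (log2 fold change -2.78 ± 0.38, adjusted p = 5.54e-04, edgeR). Ms4a8a was 6.28-fold lower and Ms4a4c, which is known to respond to interferons, 7.83-fold lower. Ms4a14 was 19.2-fold lower, with 9.7, 104 and 5.5 normalized counts in the microglia of mice 1, 2 and 3 and 929, 637 and 713 in their macrophages. The size of this fold depends on the microglia of mouse 2, which had the most. The log2 fold change of -4.31 ± 0.90 became -6.82, a larger difference, without mouse 2. It was -3.72 and -3.86 without mouse 1 and mouse 3, and the difference was called in 3 of these 3 fits by edgeR. The member pair with the highest levels differed less, since Ms4a6d was 3.02-fold and Ms4a6c 2.25-fold lower, and Ms4a6b was 1.81-fold lower. Without mouse 2, the adjusted p of Ms4a6b was 0.0502. The log2 fold change of Ms4a4b, a gene known from T cells, was -2.75 ± 1.07 with an adjusted p of 0.0708, and -3.36 with an adjusted p of 0.0440 with the mouse as a block. Without mouse 1, the adjusted p of Ms4a4b was 0.0245.

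In rIL-13 mice, 7 of the 10 members differed between the cell types, 1 higher in microglia and 6 lower, where 26.7% of all genes did. The median of the members was -2.72 on the log2 scale, and that of all genes 0.04. Ms4a7 was 6.33-fold, Ms4a4a 6.57-fold, Ms4a8a 7.12-fold and Ms4a4c 7.77-fold lower in microglia. With the mouse as a block, the adjusted p of Ms4a4c rose from 0.0171 to 0.0640. Without mouse 7, 3 members and 8.44% of all genes were called, and Ms4a8a (adjusted p = 0.0567), Ms4a4c (0.138), Ms4a6c (0.101) and Ms4a6d (0.0666) were not, by edgeR, at log2 fold changes of -2.83, -3.05, -0.99 and -1.86. Without mouse 6, Ms4a4c was not called (log2 fold change -2.10 in place of -2.98, adjusted p = 0.0699), and without mouse 5 Ms4a14 was (adjusted p = 0.00903).

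In rIL-4 mice, 6 of the 9 members tested were lower in microglia and 0 were higher, where 23.4% of all genes differed. The median of these 9 was -1.72 and that of all genes -0.03 on the log2 scale. Ms4a7 was 3.19-fold, Ms4a4a 3.27-fold, Ms4a4c 3.35-fold, Ms4a8a 3.76-fold and Ms4a14 2.11-fold lower in microglia. Ms4a4b, which had at most 2 counts in an rIL-4 microglia library, was at least 9.41-fold lower, against a limit of 3 counts per library. Ms4a6c, Ms4a6b and Ms4a6d did not pass the test. The ranges of all 3 overlapped between the cell types, with 4011 to 4532 normalized counts of Ms4a6c in microglia and 3632 to 6847 in macrophages. In a fit with the mouse as a block, Ms4a6d passed the test (adjusted p = 0.00422), and Ms4a14 (0.0524) and Ms4a4b (0.0994) no longer did. The count was 3 without mouse 8, 3 without mouse 9 and 1 without mouse 10, where 15.5%, 18.3% and 12.9% of all genes were called, and the log2 fold change of Ms4a4c moved from -1.79 to -1.13 without mouse 9 (adjusted p = 0.281) and to -2.41 without mouse 10 (adjusted p = 0.0637).

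**Figure D2:**
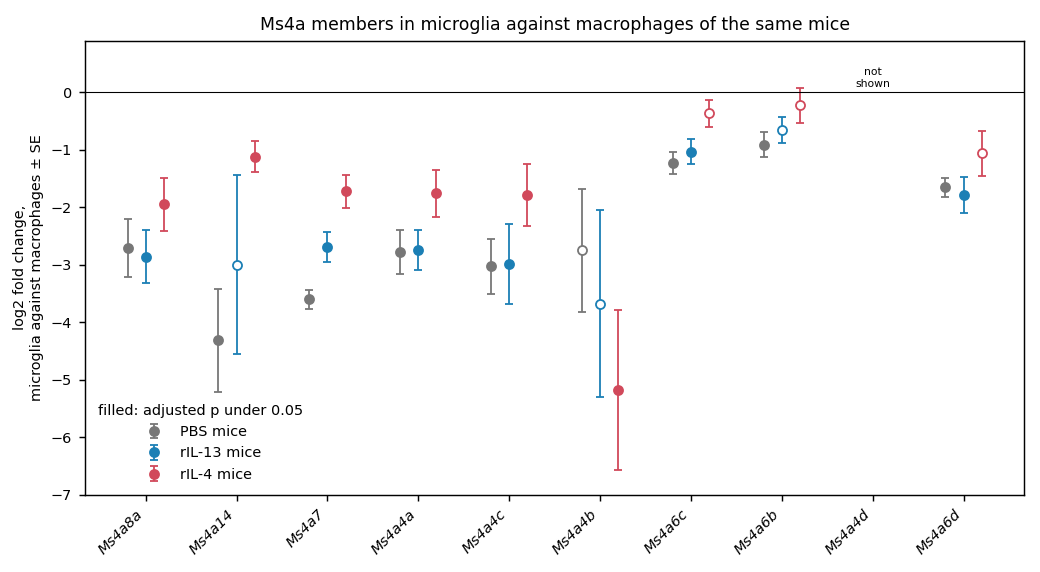
Log2 fold change of microglia against macrophages with its standard error for each member, by treatment of the mice, with filled points for an adjusted p under 0.05 (edgeR). All points shown lie below 0, and Ms4a4d is not shown because it was at 0 or up to 2 counts in macrophages.

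With rIL-4, microglia had more Ms4a4a and Ms4a7 and less Ms4a4d than with PBS. These 3 of the 10 members passed edgeR's test, 2 higher and 1 lower, where 2.22% of all genes tested did. The median log2 fold change of the members was 0.40 and that of all genes was -0.06. Ms4a4a had 213, 704 and 531 normalized counts in PBS microglia and 2422, 5904 and 4270 in rIL-4 microglia. Every rIL-4 library was above every PBS library, and the mean was 8.70-fold higher (log2 fold change 3.16 ± 0.47 (SE), adjusted p = 0.0115). Ms4a7 had 614, 758 and 760 normalized counts with PBS and 1755, 1362 and 2667 with rIL-4, again without overlap, and was 2.71-fold higher (log2 fold change 1.47 ± 0.30, adjusted p = 0.0397). A list of monocyte genes, Ly6c2 and Ccr2 among them, summed to between 1008.3 and 2205.1 in PBS microglia and to 2205.8 to 3479.9 after rIL-4, with 0 of 5 genes past the test. Of the microglia marker list, 4 of 10 genes were lower (Olfml3, Tmem119, Cx3cr1 and Sparc), with sums of 138700 to 221760 against 324960 to 561980. On a list of border macrophage genes, 3 of 7 were higher (Mrc1, Cd163 and Cbr2), with sums of 9713.5 to 21713 and 23401 to 44836. The list for monocyte-derived cells summed to 38692 to 66102 in PBS microglia and to 506400 to 895140 after rIL-4. Of its 10 genes, 2 passed the test, both higher, which were S100a4 and Chil3, and Chil3 alone had 455100 to 811300 normalized counts after rIL-4 and is also on the list of alternative activation below. A granulocyte progenitor list, which holds Ms4a3, summed to 39.905 to 114.04 in PBS microglia and to 182.08 to 941.39 after rIL-4. Ms4a3 alone had 57.4, 889 and 160 normalized counts in rIL-4 mice 8, 9 and 10. The part of these cells in the rise of Ms4a4a and Ms4a7 was not tested.

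Ms4a6d and Ms4a8a stood near the threshold in rIL-4 microglia. Ms4a6d, the most abundant member, had 6875, 9222 and 8661 normalized counts with PBS and 11579, 23870 and 18081 with rIL-4, a 2.16-fold difference of the means (log2 fold change 1.15 ± 0.25, adjusted p = 0.0535, edgeR). Ms4a8a, known from macrophages stimulated with IL-4, had 61.3, 179 and 90.6 with PBS and 299, 657 and 700 with rIL-4, a 5.00-fold difference (log2 fold change 2.36 ± 0.52, adjusted p = 0.0550). Neither gene overlapped between these groups. With DESeq2's Wald test, both passed, with adjusted p = 9.81e-04 for Ms4a6d and 1.86e-04 for Ms4a8a, as did Ms4a6b, which was lower (adjusted p = 0.0478). Ms4a14 had 9.7, 104 and 5.5 normalized counts with PBS and 291, 422 and 336 with rIL-4. Its groups did not overlap, but it spread widely among PBS libraries, and its adjusted p was 0.449 by edgeR and 0.215 by DESeq2. Ms4a6b, with 3128 to 4904 counts on this scale with PBS and 1979 to 3229 with rIL-4, overlapped and had an adjusted p of 0.165 by edgeR.

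The calls in rIL-4 microglia varied with the mouse left out, over all genes too. Without PBS mouse 3, 0.459% of all genes and no member passed by edgeR, and the adjusted p of Ms4a4a was 0.0700 and that of Ms4a4d was 0.0557. Without PBS mouse 1, Ms4a4d was at 0.0607. Ms4a7 was at 0.188, 0.132 and 0.145 without PBS mouse 1, 2 or 3, and stood above the threshold when rIL-13 mouse 7 (0.0684) or either of the rIL-4 mice 8 (0.0702) and 10 (0.107) was left out. The log2 fold change of Ms4a7 stayed between 1.17 and 1.67 in these fits, and that of Ms4a4a between 2.80 and 3.52. Without rIL-4 mouse 8, 4 members and 1.62% of all genes were called, among the members Ms4a8a (adjusted p = 0.0420) and Ms4a6d (0.0168), and Ms4a7 was not.

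Ms4a4d was the only member that was higher in microglia than in macrophages. It had 173, 119 and 109 normalized counts in the microglia of PBS mice 1, 2 and 3 and 130, 270 and 102 in those of rIL-13 mice 5, 6 and 7. No count was found in the 3 rIL-4 microglia libraries, which makes it at least 47.4-fold lower than with PBS and at least 59.2-fold lower than with rIL-13, against a limit of 3 counts per library that covers counting error only. The fall against PBS had an adjusted p of 0.0115 and that against rIL-13 an adjusted p of 0.0965 (edgeR). In macrophages, 2 counts were found in PBS mouse 1 and none in the other 8 libraries. The gene was therefore not tested among macrophages, and microglia exceeded macrophages at least 39.4-fold in PBS mice (adjusted p = 5.14e-04) and at least 47.7-fold in mice given rIL-13 (adjusted p = 0.00317).

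Markers of fibroblasts and pericytes were present in the microglia libraries beside Ms4a4d. The list was highest in the microglia library of rIL-13 mouse 6, with 322440 normalized counts, which also had the most Ms4a4d. It summed to 92310, 141150 and 102500 in the PBS microglia and to 60474, 34891 and 8312.7 in the rIL-4 microglia of mice 8, 9 and 10, and 0 of its 7 genes passed the test between these groups. In rIL-4 mouse 8, the list was at 60474 with no count of Ms4a4d, whereas rIL-13 mouse 7 had 49734 and 102 normalized counts of Ms4a4d. In macrophages the list was at or below 366.41. The genes most like Ms4a4d over the 9 microglia libraries were Bmp5, Cfap74 and Ror1, each with r = 0.99 of the log2 values. The sort for CD45, CD11b and F4/80 is meant to leave such cells out. A list of T cell genes was also low in rIL-4 microglia, with sums of 0 to 1.0688 against 13.058 to 57.633 with PBS and 81.945 to 118.36 with rIL-13. The part of fibroblasts, pericytes or T cells in the level of Ms4a4d was not tested.

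**Figure D3:**
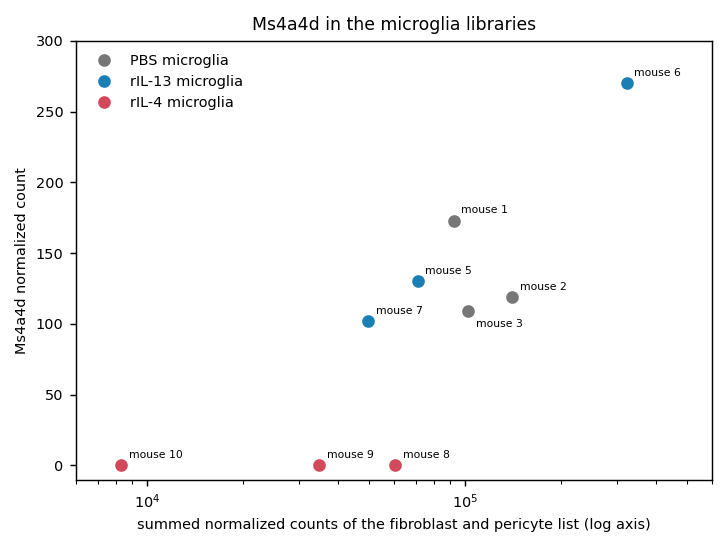
Normalized counts of Ms4a4d in the 9 microglia libraries against the summed normalized counts of 7 fibroblast and pericyte markers on a log axis, with 1 point for each mouse. The 3 rIL-4 libraries lie at 0, and rIL-13 mouse 6 is highest on both axes.

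With rIL-13, no member passed the test in microglia, where 0.366% of all genes did. DESeq2's Wald test called 2, Ms4a4a and Ms4a8a, and 1.73% of all genes with a count. The median log2 fold change of the members was 0.45, that of all genes 0.00. Ms4a4a had 1369, 2302 and 1809 normalized counts with rIL-13, above the 213 to 704 with PBS, and its mean was 3.78-fold higher (log2 fold change 1.92 ± 0.45, adjusted p = 0.198). In a fit of all 18 libraries, its adjusted p was 0.0453. Ms4a8a had 408, 459 and 281 with rIL-13 against 61.3 to 179 with PBS (log2 fold change 1.80 ± 0.51, adjusted p = 0.334). Ms4a7, at 1487, 872 and 1083, and Ms4a6d, at 11131, 14766 and 10929, also did not overlap with PBS, and their log2 fold changes were 0.70 ± 0.30 and 0.58 ± 0.25. The border macrophage list summed to 22500 to 37155 with rIL-13, above the PBS range, with 1 of 7 genes higher (Cbr2). The list for monocyte-derived cells summed to 232540 to 327430, also above PBS, with 2 of 10 higher (S100a4 and Chil3), and Chil3 alone had 182000 to 270800. The part of these cells was not tested.

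Between rIL-4 and rIL-13 microglia, no member passed, and 0.0385% of all genes did. DESeq2 called 1, Ms4a4d, and 3.1% of all genes with a count. The members' median log2 fold change was 0.47 and that of all genes -0.02. Ms4a4a did not overlap between the groups, with 2422 to 5904 normalized counts with rIL-4 and 1369 to 2302 with rIL-13, and was 2.30-fold higher with rIL-4 (log2 fold change 1.23 ± 0.44, adjusted p = 0.377). Ms4a6b was 1.68-fold lower with rIL-4, also without overlap, with an adjusted p of 0.338. In a fit of all 18 libraries, the fall of Ms4a4d passed the test, with an adjusted p of 0.0183.

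In macrophages, rIL-4 raised Ms4a4a and lowered Ms4a4b, Ms4a6c and Ms4a6b. Of the 9 members tested, 1 was higher and 3 were lower than with PBS, where 14.0% of all genes were called by edgeR. The median log2 fold change was -0.38 over these members and 0.02 over all genes. Ms4a4a had 2641, 3416 and 3510 normalized counts with PBS and 8238, 19809 and 13145 with rIL-4, so that the groups were apart, and its mean was 4.31-fold higher (log2 fold change 2.16 ± 0.35, adjusted p = 0.00308). It was called in each of the 9 fits that left out 1 mouse. Ms4a8a, with 369, 1078 and 632 against 1386, 3402 and 1437, was 2.99-fold higher without overlap, at an adjusted p of 0.0659.

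The 3 that fell are consecutive members on the plus strand. Ms4a6b, which is known from T cells as well as myeloid cells, had 5552, 8700 and 8121 normalized counts with PBS and 1729, 3372 and 3252 with rIL-4, and was 2.68-fold lower (log2 fold change -1.37 ± 0.30, adjusted p = 0.0127, edgeR). Ms4a6c had 9444, 14140 and 14369 against 3632, 6847 and 5662, a 2.35-fold lower mean (log2 fold change -1.18 ± 0.26, adjusted p = 0.0152). Ms4a4b was low in macrophages, with 59.8, 123 and 119 against 19.4, 40.3 and 20.0, and was 3.79-fold lower (log2 fold change -1.87 ± 0.44, adjusted p = 0.0192). In none of the 3 did the rIL-4 and PBS macrophages overlap, and how many of all genes did not overlap was not counted. Ms4a4c had a fold of like size, 3.08, but overlapped, with 1117, 3101 and 4410 against 519, 1532 and 753, and an adjusted p of 0.146. Ms4a6d (1.45-fold), Ms4a7 (1.35-fold lower) and Ms4a14 (1.03-fold lower) overlapped as well.

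Reads of Ms4a6c could be shared with another gene. Of its 76-base windows, 47.65% were also held by BE692007, a transcript annotated on the opposite strand over it, and the libraries do not mark strand. BE692007 had a log2 fold change of -0.79 ± 0.23 with rIL-4 in macrophages (adjusted p = 0.0467, edgeR). Ms4a4c and Ms4a4b shared 3.66% and 1.14% of their windows with other genes, Ms4a6b 0.59%, Ms4a6d 0.35%, and the other 5 members none. All 10 genes of the microglia marker list were lower in rIL-4 macrophages, with sums of 18339 to 33960 normalized counts against 114600 to 175780 in PBS macrophages. The list summed to 46630 to 94863 in rIL-13 macrophages, where Ms4a4b, Ms4a6c and Ms4a6b overlapped with PBS. The neutrophil list summed to 11088, 37113 and 18552 with rIL-4 against 36831, 65909 and 38846 with PBS, with 0 of 8 genes past the test. Of the 8 genes of a T cell list, Cd3e, Cd3d and Cd3g had at most 4.367 normalized counts in any macrophage library. The list summed to 46.295 to 78.793 with PBS, 171.89 to 208.58 with rIL-13 and 122.01 to 318.3 with rIL-4, where Cd2 was higher (119.1 to 313.7 against 23.71 to 50.57, adjusted p = 0.00187) and Cd4 lower (0 against 12.42 to 18.56, adjusted p = 0.0169) by edgeR. In microglia the T cell list summed to 13.058 to 57.633 with PBS, 81.945 to 118.36 with rIL-13 and 0 to 1.0688 with rIL-4. Lck and Trac were higher in microglia than in macrophages of rIL-13 mice. The lists for B cells, dendritic cells, eosinophils, and fibroblasts and pericytes were also lower in every rIL-4 than in every PBS macrophage library. Those for monocyte-derived cells and NK cells were higher. The part of these cells in the fall of Ms4a4b, Ms4a6c and Ms4a6b was not tested.

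Some of these calls were lost when 1 mouse was left out, while the log2 fold change stayed between -2.32 and -1.67 for Ms4a4b, -1.41 and -0.95 for Ms4a6c and -1.55 and -1.11 for Ms4a6b. Without PBS mouse 3, 7.39% of all genes and, of the members, only Ms4a4a passed in macrophages, and the adjusted p was 0.0764 for Ms4a4b, 0.0652 for Ms4a6c and 0.0517 for Ms4a6b (edgeR). Without PBS mouse 2, 2 members and 8.74% of all genes passed, with 0.0683 for Ms4a4b and 0.0539 for Ms4a6c, and without rIL-4 mouse 10 also 2 and 7.81%, with 0.0788 for Ms4a4b and Ms4a6c just above 0.05. Without rIL-4 mouse 8, Ms4a4b was at 0.0635. Without rIL-13 mouse 6, Ms4a8a passed (0.0312). In the fit of all 18 libraries, Ms4a4b was at 0.659.

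With rIL-13, Ms4a4a was the 1 member called in macrophages, where 4.19% of all genes were called by edgeR. It had 7387, 17157 and 11476 normalized counts in mice 5, 6 and 7, all above PBS, and was 3.76-fold higher (log2 fold change 1.94 ± 0.35, adjusted p = 0.0131). Without PBS mouse 1, 2 or 3, its adjusted p was 0.0728, 0.0533 and 0.0638, and 1.89%, 1.89% and 1.41% of all genes were called. Ms4a8a had 1424, 4631 and 2114, above the 369 to 1078 with PBS, and was 3.93-fold higher at an adjusted p of 0.0682, or 0.0315 with DESeq2 and 0.0405 by edgeR without rIL-4 mouse 9. The median log2 fold change over the 9 members was -0.16, that of all genes 0.01. Ms4a6d did not overlap with PBS either, with 29033, 62767 and 32673 against 19803 to 28954 and an adjusted p of 0.313. Ms4a6c, Ms4a6b, Ms4a4b and Ms4a4c overlapped with PBS. The microglia list summed to 46630 to 94863 in rIL-13 macrophages, below PBS, with 4 of 10 genes lower. The border macrophage list summed to 97181 to 175350 against 73264 to 90027 with PBS, with 4 of 7 genes higher and 1 lower, and overlapped PBS with rIL-4 (71935 to 135550). The list for monocyte-derived cells summed to 2526800 to 3530800 with rIL-13 and 3584800 to 4424900 with rIL-4 against 456440 to 567890 with PBS, of which Chil3 alone had 2162000 to 2934000, 3265000 to 4162000 and 58850 to 146100. The part of these cells in the rise of Ms4a4a was not tested.

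Between rIL-4 and rIL-13 macrophages, no member passed, and 0.250% of all genes did. DESeq2 called 1, Ms4a6b, and 1.69% of all genes with a count. The median log2 fold change was -0.37 over the members and 0.00 over all genes. Ms4a4b, Ms4a6c and Ms4a6b were lower in each rIL-4 library than in any rIL-13 library. Ms4a6b had 4694, 8400 and 6088 normalized counts with rIL-13 against 1729, 3372 and 3252 with rIL-4, a 2.30-fold difference (log2 fold change -1.17 ± 0.29, adjusted p = 0.155), and Ms4a6c differed by 1.90-fold (adjusted p = 0.206) and Ms4a4b by 2.67-fold (adjusted p = 0.251). Ms4a4a had overlapping ranges with the 2 cytokines. Comparisons with rIL-4 and with rIL-13 share the same PBS libraries.

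**Figure D4:**
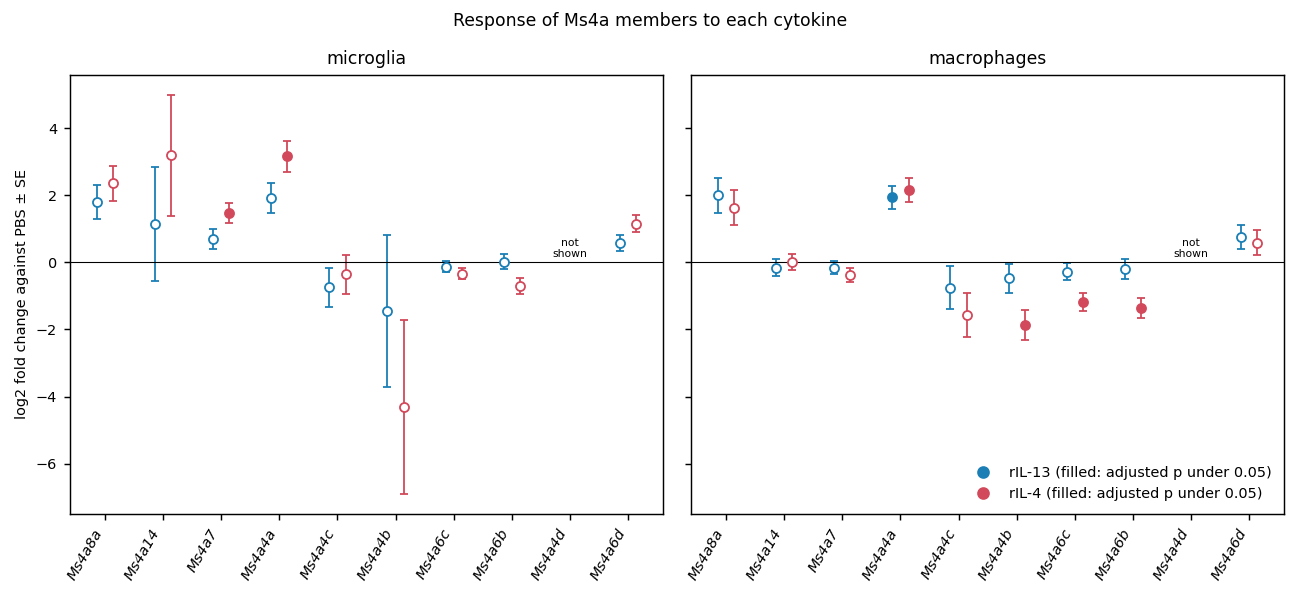
Log2 fold change against PBS with its standard error for each member and cytokine, in microglia on the left and in macrophages on the right, with filled points for an adjusted p under 0.05 (edgeR). Ms4a4a lies above 0 in all 4 comparisons, Ms4a4b, Ms4a6c and Ms4a6b lie below 0 with rIL-4 in macrophages, and Ms4a4d is not shown because it was at or near 0 counts in some groups.

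The macrophage libraries of rIL-13 mouse 6 and rIL-4 mouse 9 had the highest level of their group for 7 members each, and Ms4a4d had no count in these groups. How many of all genes were highest in these libraries was not counted. Their Ms4a4a reached 17157 and 19809 normalized counts and their Ms4a6d 62767 and 54120. The monocyte list was also highest there within its group, at 43061 and 28811, as was the neutrophil list, at 129540 and 37113. The granulocyte progenitor list, which holds Ms4a3, was at 3320.3 and 3232.3 in them and between 176.87 and 645.66 in the other 7 macrophage libraries. Of these sums in mice 6 and 9, Ms4a3 alone had 2332 and 2925, so that they largely restate this gene. The part of these cells was not tested. Without mice 6 and 9, chosen after the data were seen, rIL-4 changed 5 members in macrophages, 1 higher and 4 lower, where 17.9% of all genes were called, which added Ms4a4c (log2 fold change -2.13, adjusted p = 0.0442). In the same fit rIL-13 raised 2, Ms4a4a and Ms4a8a (log2 fold change 1.38, adjusted p = 0.0483), where 6.47% of all genes were called. In rIL-4 microglia, 3 members were called, 2 higher and 1 lower, and 2.16% of all genes.

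The response to rIL-4 was compared between the cell types as the change in microglia less the change in macrophages over the 18 libraries. By edgeR, 1 of the 10 members, Ms4a7, differed, where 0.992% of all genes did. Ms4a4d, counted among the 10, could not be assessed, with at most 2 counts in macrophages and an estimate of -7.24 ± 10284.7 (SE). The median was 0.76 over the members and -0.02 over all genes. Ms4a7 rose from 614, 758 and 760 to 1755, 1362 and 2667 normalized counts in microglia, whereas macrophages had 6756, 8842 and 9283 with PBS and 4960, 6136 and 7377 with rIL-4, which overlapped. The difference was 1.83 ± 0.37 on the log2 scale (adjusted p = 0.0267), and 2.03 without mice 6 and 9 (adjusted p = 0.0173). It was called in 3 of the 9 fits that left out 1 mouse. Its adjusted p was 0.112, 0.111 and 0.155 without PBS mouse 1, 2 or 3, and 0.0578, 0.0615 and 0.0631 when mouse 7 (rIL-13), 8 or 10 (both rIL-4) was left out. In these 6 fits, 0.105% to 0.525% of all genes were called.

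For Ms4a4a, the difference between the responses to rIL-4 was 0.97 ± 0.60 on the log2 scale (adjusted p = 0.584), and for Ms4a6c, which fell in macrophages, 0.81 ± 0.33 (adjusted p = 0.317, edgeR). These values do not show that the cell types respond alike. The response to rIL-13 differed for 0 of the 10 members by edgeR and by DESeq2, where 0.0242% of all genes differed by edgeR and 0.69% by DESeq2. The median was 0.08 over the members and -0.01 over all genes.

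The order of the members along the cluster is given as a description. Ms4a4a, with the rise, is directly followed by Ms4a4c, Ms4a4b, Ms4a6c and Ms4a6b, all of which had negative log2 fold changes in rIL-4 macrophages. Ms4a7, the member before Ms4a4a, had -0.38 and Ms4a14 before it 0.01, neither past the test, and Ms4a8a and Ms4a6d, at the ends of the stretch, had positive values that did not pass either. Between the outermost Ms4a genes of the chromosome region, members or not, 16 other genes were annotated, of which 4 were expressed enough to be tested. In macrophages BE692007 was lower with rIL-4 and the others did not pass, and in microglia 0 of 4 passed with either cytokine. BE692007 lies over Ms4a6c and shares windows with it, as given above, so that its fall is not a separate result. AW112010, a long noncoding RNA before Ms4a8a, was higher in microglia than in macrophages with each treatment, with log2 fold changes of 0.99 ± 0.24 with PBS, 1.54 ± 0.32 with rIL-13 and 2.16 ± 0.31 with rIL-4.

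**Figure D5:**
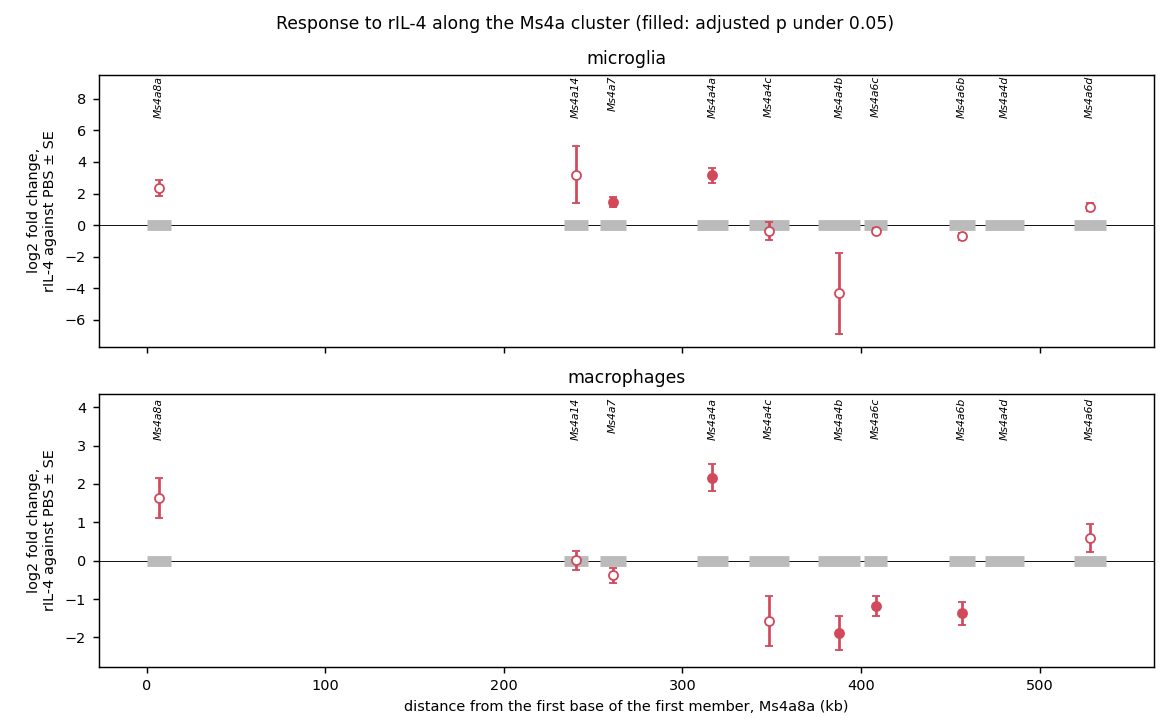
Log2 fold change of rIL-4 against PBS with its standard error, placed at the middle of each member (grey bars) by the distance in kb from the first base of Ms4a8a, in microglia above and in macrophages below, with filled points for an adjusted p under 0.05 (edgeR). The 4 genes after Ms4a4a lie below 0 in macrophages, and Ms4a4d is not shown.

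Likeness between members across libraries is given as a description, because libraries share mice, cell type and treatment. Over the 9 macrophage libraries, the log2 normalized counts of Ms4a6b and Ms4a6c had r = 0.99, those of Ms4a4b and Ms4a6c 0.96 and those of Ms4a4b and Ms4a6b 0.94. Over the 9 microglia libraries the same pairs had lower values of 0.70, 0.33 and 0.49. Ms4a4a and Ms4a8a had r = 0.91 in macrophages and 0.95 in microglia, and Ms4a8a and Ms4a6d had 0.88 in macrophages and 0.91 in microglia. Ms4a4a and Ms4a6b had r = -0.35 in macrophages and -0.43 in microglia. Ms4a7 was like Ms4a4a in microglia (0.78) and not in macrophages (-0.50), where its r with Ms4a6c was 0.67. The r of Ms4a14 with Ms4a4a was 0.46 in microglia and -0.28 in macrophages. The genes outside the family most like Ms4a4a over the 18 libraries were Srgn (0.98), Ccl9 (0.98) and 2010111I01Rik (0.97). Over microglia they were Ccl9 (0.99), Mrc1 (0.98) and Cblb (0.98), and over macrophages F10, Gja1 and Anxa6 (0.99 each). Ms4a7 was most like Rnh1, Fabp5 and Tmem106a over all 18 libraries (0.99 each), and Ms4a4c most like Ifi204 (0.99), Ogfr (0.98) and Irf7 (0.97) over macrophages. Ecm1 and Pex13 were among the 3 nearest genes of both Ms4a6b and Ms4a6c in macrophages.

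Of the 11 other family genes, which are the 9 other Ms4a rows and the related genes Tmem176a and Tmem176b, 3 were expressed enough to be tested against PBS. Tmem176b had 17355, 11789 and 14724 normalized counts in PBS microglia and 4890, 4363 and 3471 in rIL-4 microglia (log2 fold change -1.75 ± 0.23, adjusted p = 0.00700, edgeR). In macrophages, Tmem176b fell with rIL-4 (log2 fold change -2.17 ± 0.30) and with rIL-13 (-1.40 ± 0.30), as did Tmem176a (-2.25 ± 0.32 and -1.33 ± 0.31), and both genes were higher in microglia than in macrophages with each treatment. Ms4a3, a gene of granulocyte and monocyte progenitors, had 32.7, 9.4 and 0 normalized counts in PBS macrophages and 72.9, 2925 and 356 with rIL-4 (log2 fold change 6.36 ± 1.80, adjusted p = 0.0408). With rIL-13 it had 88.8, 2332 and 186. The highest values were those of mice 6 and 9. The granulocyte progenitor list given above for these mice holds Ms4a3 itself, so that it is not separate evidence. Ms4a1 of B cells had at most 14.2 and Ms4a2 of mast cells at most 10.5 normalized counts in any library.

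Of 7 genes for known partners of family proteins, Clec7a was higher with both cytokines in both cell types. Its log2 fold change was 2.63 ± 0.14 with rIL-4 and 1.86 ± 0.14 with rIL-13 in microglia, and 2.86 ± 0.18 and 2.46 ± 0.17 in macrophages. Trem2 (-0.75 ± 0.21, adjusted p = 0.0414) and Tyrobp (-0.65 ± 0.16, adjusted p = 0.0201), which encodes its signalling adaptor, were lower in rIL-4 macrophages by edgeR, and the other 4 did not pass against PBS. On a list of 18 genes of alternative activation, rIL-4 raised 9 of the 16 tested in microglia and rIL-13 raised 6, Retnla among them, and neither lowered any. In macrophages, 15 of 18 were higher and 1, Alox15, was lower with rIL-4, and 13 were higher with rIL-13. The list was made with results of these data known, so that it is not independent evidence.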

How the data were processed

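RNA was measured in 18 libraries (SMART-seq2, without strand information or molecular identifiers) of microglia and macrophages sorted from 9 mice. Reads had been aligned by the authors (STAR 2.5.3a, GRCm38), who deposited expected counts of RSEM 1.3.0 as whole numbers, without normalization, and RSEM divides reads that match several genes. Counts were tested with edgeR 4.0.16 (R 4.3.3) by the quasi-likelihood method after TMM normalization and its filter on low counts. Treatments were compared in the 9 libraries of a cell type, cell types in the 6 libraries of a treatment, and differences of responses in all 18 libraries. Adjustment (Benjamini-Hochberg) ran over all genes kept, with a threshold of 0.05. Standard errors came from the F statistic. Normalized counts and DESeq2's Wald test used DESeq2 1.42.0. With 3 mice in a group, p-values measure the spread among these animals. Whether groups overlapped is a description, and the share of all genes without overlap was not counted.

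Alternatives were another normalization, DESeq2, no filter, other sets of libraries, the mouse as a block and each mouse left out in turn. The block rests on the same animal giving both cell types. The deviations of its 2 libraries from their group means had correlations of 0.018 to 0.093 over 16535 genes. Similarity was Pearson's r of log2(normalized count + 1), for the 3 nearest genes of at least 10 normalized counts on average. All 10 members were named in every comparison. Promoters were read from a RefSeq table of GRCm38.p6 and aligned with Biopython 1.88, and 76-base windows came from GENCODE transcripts. A gene with at most 3 counts in every library of a group was given a bound. The fits were tested on simulated data. The members and gene lists were chosen with earlier results of these data known.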

Additional observations from a re-analysis of the deposited data

Results flagged for a closer look

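The response of Ms4a7 to rIL-4 differed between the cell types. The change against PBS in microglia less that in macrophages was 1.83 on the log2 scale by the interaction term of edgeR's quasi-likelihood test (adjusted p = 0.0267), with the microglia of 3 of 3 rIL-4 mice above all 3 PBS mice. No group had enough libraries for a test of single outlying samples.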

How the results depend on the processing

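DESeq2's Wald test called 6 members with rIL-4 and 2 with rIL-13 in microglia, 2 with rIL-13 in macrophages, 1 between rIL-4 and rIL-13 in each cell type, and 2 for the difference in the response to rIL-4, where edgeR called 3, 0, 1, 0 and 1. DESeq2 also called more of all genes with a count, at 6.27%, 1.73% and 4.69% against PBS, 3.1% (microglia) and 1.69% (macrophages) between the cytokines and 2.94% for the difference. In the fit of all 18 libraries, edgeR called 1 member with rIL-13 in microglia and 1 between the cytokines in microglia, with 1.04% and 0.835% of all genes. Without a filter on low counts it called 2 with rIL-13 in macrophages and 1 between the cytokines in macrophages (3.26% and 0.896% of all genes), and without mice 6 and 9, added after seeing the data, 2 with rIL-13 in macrophages (6.47%). The other settings, DESeq2's size factors and only the libraries compared, moved no count by over 1.5 times.

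With 1 mouse left out, the number of members called against PBS was 0 to 4 with rIL-4 and 0 to 0 with rIL-13 in microglia, and 1 to 5 and 0 to 2 in macrophages. Between the cytokines it was 0 to 0 in both cell types. Between the cell types it was 8 to 10 with PBS, 3 to 8 with rIL-13 and 1 to 3 with rIL-4, and for the differences in response 0 to 1 with rIL-4 and 0 to 0 with rIL-13. The share of all genes called moved as well in these fits, to 0.459% to 2.47% and 0.135% to 0.338% in microglia and 7.39% to 16.1% and 1.41% to 4.79% in macrophages against PBS, to 0% to 0.0906% (microglia) and 0.00713% to 0.425% (macrophages) between the cytokines, to 28.9% to 34.5%, 8.44% to 25.4% and 12.9% to 18.3% between the cell types, and to 0.105% to 1.41% and 0% to 0.0346% for the differences. Of 632 refits of the 54 member results with an unadjusted p under 0.05, 552 kept their direction and side of the threshold, 50 lost the call, 30 gained it and 0 reversed. The cause of these moves was not tested.

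With the mouse as a replicate block, 10 members were called between the cell types with PBS, 6 with rIL-13 and 5 with rIL-4, and 1 and 0 for the differences in response to rIL-4 and rIL-13, where 40.2%, 25.4%, 20.6%, 1.14% and 0.0181% of all genes were called. Apart from the calls named in the report, the block changed none. With the longest transcript in place of all exons as the length, 43 of 45 pairs of members kept the order of their levels. Ms4a4b had no count in 5 of 9 microglia libraries, and differences in it between treatments of microglia were not detectable at this depth.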
